A study of Mus musculus with 12 samples.

Results

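The 6 tumors described here came from the treatment arm of an RNA-seq series on mammary tumors of MMTV-PyVT mice, and compared 3 tumors of mice injected with C646 with 3 tumors of mice injected with DMSO. They were chosen by the treatment in the sample labels and made up 6 of the 12 samples of the series; the other samples were 3 untreated tumors and 3 normal mammary glands. All 6 mice were MMTV-PyVT on the FVB background, females by the methods of the study, in which the mouse mammary tumor virus promoter drives the polyoma middle T oncogene in mammary epithelium. All were 12 weeks old, so every tumor, controls included, carried the same transgene. The labels list a dose of 1 mg/kg for the C646 injection and the same figure for the DMSO injection, and what that figure means for DMSO, the solvent, is not given in the sources used here. Each sample was the biggest tumor of 1 mouse, so the replicates are mice, here named DMSO 1 to 3 and C646 1 to 3. Expression was measured in poly-A RNA of whole tumor pieces and deposited as FPKM, the fragments of a gene scaled by its length and by the mapped fragments of the library.

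C646 is an inhibitor of p300, an acetyltransferase that places H3K27ac on enhancers and acetylates H4K8, and of its close relative CBP. Acetylated enhancers recruit bromodomain readers and Mediator and so help RNA polymerase to start at the genes they control. Among the programs known to lean on p300 and CBP as co-activators are the hypoxia response, in which HIF-1 induces glycolysis and VEGF genes, and the interferon response, in which STAT and IRF factors induce antiviral genes. The comparison asks which genes of the tumor differ when mice are injected with this inhibitor.

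The label of mammary tumor was checked against marker genes. Luminal epithelial markers were high in every tumor, with Krt8 between 649 and 874 FPKM, Krt18 between 622 and 888 and Epcam between 524 and 701. Some lymphocyte markers were at or near 0, with Cd3e at most 0.319 FPKM and Ms4a1 listed at 0 in all 6 tumors. Summed over a list of T and NK cell genes the level was 7.90 to 17.64 FPKM, and over a list of B cell genes 1.21 to 8.35 FPKM. Endothelial (Pecam1, 11.2 to 23.8 FPKM) and macrophage markers (Csf1r, 20.7 to 38.1 FPKM) were present in all tumors. Skeletal muscle genes divided the tumors without regard to treatment. Acta1, the actin of skeletal muscle, was at 178, 161 and 142 FPKM in DMSO 3, C646 1 and C646 3 but at most 0.459 FPKM in DMSO 1, DMSO 2 and C646 2. DMSO 3 also held keratinized epithelium genes that the others lacked, such as Krt1 (45.4 FPKM, and at most 0.088 FPKM in the others). In such bulk samples, fewer cells of a type and less RNA per cell cannot be told apart.

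The 3 DMSO tumors differed from each other more than the 3 C646 tumors did. Of the 12083 genes tested, those that reached 1 FPKM in 3 or more tumors, 1332, 1796 and 1197 were at least 2-fold apart in the pairs of DMSO tumors, against 598, 601 and 542 in the pairs of C646 tumors. DMSO 2 was closer to the C646 tumors than to the other DMSO tumors, with 480, 470 and 539 genes 2-fold apart from C646 1, 2 and 3. Pearson's r across genes on the log2(FPKM + 2^-5) scale was 0.949 to 0.961 for DMSO 2 against the C646 tumors, and 0.923 and 0.911 for DMSO 2 against DMSO 1 and DMSO 3. DMSO 1 and DMSO 3 also differed from each other, and the first principal component (39.7% of the variance) set apart DMSO 1 while the second (26.5%) set apart DMSO 3. No batch is given for these libraries, and what set DMSO 1 and DMSO 3 apart was not tested. Because of this structure, the value of each tumor is given below before any difference between the groups.

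**Figure D1:**
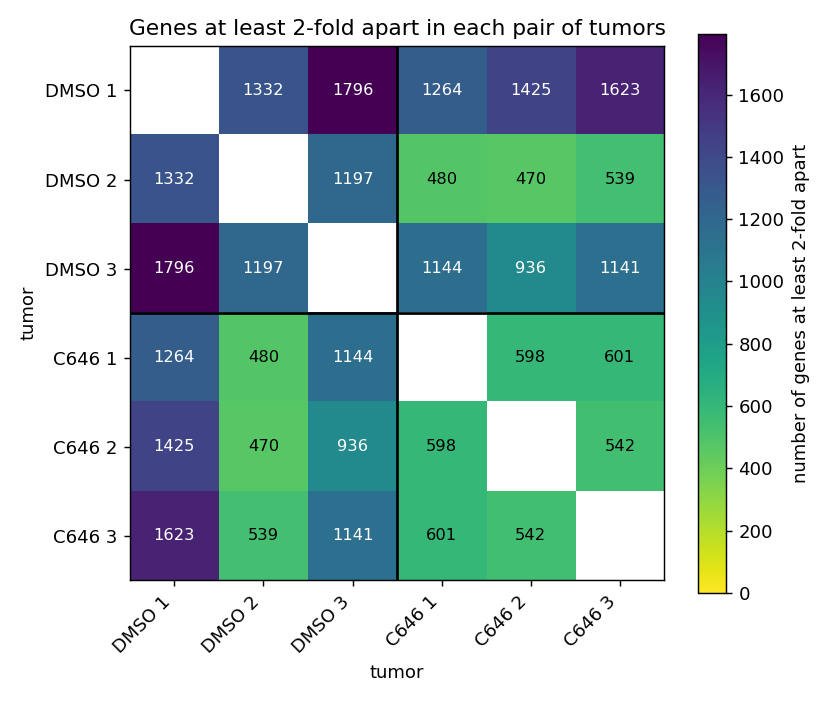
Heat map of the number of genes at least 2-fold apart on the log2(FPKM + 2^-5) scale in each pair of tumors, out of 12083 genes tested. Black lines part the DMSO from the C646 tumors, and DMSO 2 shows 470 to 539 such genes against the C646 tumors but 1197 or more against the other DMSO tumors.

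No gene passed the test between the groups. In limma on log2(FPKM + 2^-5), with Benjamini-Hochberg adjustment over 12083 genes, 0 genes were higher (0%) and 0 lower (0%) in C646 tumors at an adjusted p under 0.05, and the lowest adjusted p was 0.99. At an unadjusted p under 0.05, 169 genes were higher (1.4%) and 215 lower (1.78%), together 3.18% of the genes tested. The 3 C646 tumors lay all above the 3 DMSO tumors for 488 genes (4.04%) and all below for 546 (4.52%). With quantile normalization that split turned to 591 higher and 385 lower, and the split at an unadjusted p to 215 higher and 172 lower. By the ratio of group means, 167 of 12448 genes were at least 2-fold higher (1.34%) and 533 at least 2-fold lower (4.28%) in C646 tumors, and for 61 and 66 of them the groups did not overlap. The 533 lower genes rested on DMSO 1 and DMSO 3: the highest of the 6 values was in DMSO 1 for 270 and in DMSO 3 for 229, and DMSO 2 was at or below the highest C646 tumor for 386 (72.4%). The exact permutation test for a single gene cannot go below p = 0.1 with 3 tumors in each group.

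The transcripts of p300 and CBP, the targets of C646, were not lower in C646 tumors. Ep300, which encodes p300 (GRCm38 chr15:81585351-81652077), was at 10.1, 9.08 and 5.84 FPKM in DMSO 1, 2 and 3 and at 11.3, 9.16 and 10.4 FPKM in C646 1, 2 and 3, and the groups overlapped. Crebbp, which encodes CBP (chr16:4081328-4213997), was at 5.51, 5.49 and 5.24 FPKM in the DMSO tumors and at 6.54, 6.26 and 6.33 FPKM in the C646 tumors. Its groups did not overlap, with a log2 fold change of 0.24 (SE 0.15, limma unadjusted p = 0.15, adjusted p = 0.99). Over 14 histone acetyltransferase genes the median log2 fold change was 0.14, with 12 above 0 and 2 below, against -0.01 over all genes tested. Besides Crebbp only Kat7, which acetylates H3K14 and H4, had groups without overlap (12.4, 12.3 and 13.6 against 13.8, 14.4 and 14.5 FPKM), which made 2 of 14 genes against 4.04% of all genes. RNA levels say nothing of the activity of these enzymes.

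The genes below had the lowest p in each direction among those without overlap, none with an adjusted p under 0.05. Higher in all C646 tumors were Trim65, an E3 ubiquitin ligase (4.24, 4.69 and 4.28 against 7.21, 7.30 and 8.90 FPKM, log2 fold change 0.81, SE 0.17), and Slc2a4, the insulin-responsive glucose transporter GLUT4 (1.19, 1.00 and 1.79 against 3.28, 3.42 and 3.21 FPKM). The same held for Tbc1d8 (log2 fold change 0.65), Dppa1 (2.85), Gnrh1 (1.14), Mybph (1.21), Mir146b (1.48), Cdo1 (1.87), Pck1 (6.12) and Plin1 (4.63). Pck1 and Plin1 stayed below 1 FPKM in every DMSO tumor, so they were tested through the C646 tumors alone. Genes tested in this way can only come out higher and without overlap, so their place here is no support. Pck1, Plin1, Slc2a4 and Cdo1 are known to be expressed in adipocytes, though of these only Plin1 was on the adipocyte list below.

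Lower in all C646 tumors was first Phlda3 (chr1:135766119-135769136), a p53 target that restrains Akt. It was at 26.4, 20.7 and 25.9 FPKM in DMSO tumors and 13.1, 12.8 and 15.9 FPKM in C646 tumors, a log2 fold change of -0.81 (SE 0.16, limma unadjusted p = 0.00137, adjusted p = 0.99). Lgals3, encoding the lectin galectin-3, was at 109, 84.1 and 124.9 against 65.5, 44.8 and 53.9 FPKM. Dsp, the desmosomal linker desmoplakin, was at 44.1, 27.2 and 49.0 against 22.6, 17.5 and 14.8 FPKM. Cdkn2b, the cell cycle inhibitor p15, was at 7.34, 5.93 and 8.95 against 2.25, 4.31 and 2.72 FPKM. In these genes DMSO 2 lay on the side of the other DMSO tumors, as the choice by non-overlap required. The others were the joined row of H2-T23 (log2 fold change -0.77), Mal (-1.54), B9d1 (-0.57), Vangl1 (-0.57), Gm15421 (-1.20) and Wfdc12 (-1.49).

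The program of the lowest median was the interferon response. Of 28 interferon-stimulated genes on the list, 25 passed the filter on low values, all 25 with a log2 fold change below 0, and their median was -1.86 against -0.01 over all genes tested. None passed the adjusted threshold, and 12 had an unadjusted p under 0.05 against 1.78% of all genes. Groups did not overlap for 4 (Oasl1, Mx2, Ddx58 and Ifih1), against 4.52% of all genes. All 25 were higher in DMSO 1 and in DMSO 3 than in each of the 4 other tumors, a pattern that 11.5% of all genes tested shared. DMSO 2 lay within the range of the C646 tumors for 15 of the 25, against 55.8% of all genes tested. It was below that range for 6 of the 25 and above it for 4. The median over the genes of the deviation from the mean of the 6 tumors was 2.28, -0.92 and 1.55 on the log2 scale in DMSO 1, 2 and 3 and -0.81, -0.89 and -0.92 in C646 1, 2 and 3.

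Type I interferon reaches these genes through the factor ISGF3, which binds the interferon-stimulated response element. The element was searched as GAAANNGAAA on both strands in the RefSeq promoters of GRCm38.p6, from 250 bases before to 50 bases after each start site. Of the 21 listed genes with a promoter in that table, 13 held a match (61.9%), against 3.99% of all 27025 genes. The windows below show the first match of 5 genes of the list, up to the start site at most, with every match in capitals. They are Isg15 (chr4:156200852-156200931, minus strand), Ifit1 (chr19:34640750-34640829, plus strand), Oas1a (chr5:120907526-120907580, minus strand), Rsad2 (chr12:26456528-26456607, minus strand) and Bst2 (chr8:71537558-71537637, minus strand), chosen after their values were seen.
Isg15: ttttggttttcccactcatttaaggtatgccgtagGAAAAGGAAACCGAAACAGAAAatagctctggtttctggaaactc
Ifit1: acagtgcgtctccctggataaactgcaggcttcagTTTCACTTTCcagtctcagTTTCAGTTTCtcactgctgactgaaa
Oas1a: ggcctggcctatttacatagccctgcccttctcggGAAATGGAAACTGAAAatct
Rsad2: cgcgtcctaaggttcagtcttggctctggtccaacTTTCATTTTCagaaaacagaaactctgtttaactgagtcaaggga
Bst2: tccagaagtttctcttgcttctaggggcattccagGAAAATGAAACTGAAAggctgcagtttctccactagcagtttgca

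The matches overlap each other in Isg15, Oas1a and Bst2, where the spaced repeat runs on. A match is a description of the letters and does not show binding. Isg15, the ubiquitin-like modifier whose promoter is the first window, was at 374.5, 23.8 and 251.5 FPKM in DMSO 1, 2 and 3 and at 34.7, 20.8 and 19.2 FPKM in C646 1, 2 and 3. The mean of the DMSO tumors was 8.71 times that of the C646 tumors, but DMSO 2 was below C646 1 (log2 fold change -2.45, SE 0.97, limma unadjusted p = 0.0396, adjusted p = 0.99).

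Usp18, the protease that removes ISG15 and dampens the interferon receptor, had the lowest log2 fold change of the list (-3.09, SE 1.18, unadjusted p = 0.0353 in limma). Its level was 74.4, 2.08 and 31.0 FPKM in DMSO tumors and 1.90, 2.22 and 1.79 FPKM in C646 tumors. Bst2, the tetherin that holds budding virus at the cell surface, was at 348, 41.4 and 330 FPKM against 48.6, 44.2 and 46.6 FPKM. In both genes DMSO 2 was within or below the range of the C646 tumors.

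The transcription factors of the pathway shared that order of tumors. Irf7, which amplifies interferon production, was at 296, 30.2 and 153 FPKM in DMSO tumors and at 32.5, 23.03 and 26.5 FPKM in C646 tumors. The row joining Irf9, a subunit of ISGF3, with Rnf31 was at 80.5, 35.2 and 57.7 against 33.4, 30.0 and 39.9 FPKM. Among the RNA sensors, Ddx58 (RIG-I) was at 46.5, 11.2 and 22.4 against 9.57, 10.7 and 11.1 FPKM, and Ifih1 (MDA5) at 19.3, 7.16 and 8.96 against 6.05, 5.32 and 6.41 FPKM. For these 2 sensors DMSO 2 was above the C646 tumors by a small margin, so the groups did not overlap. Among the effectors, Mx2 was at 20.2, 1.78 and 11.9 against 1.202, 1.497 and 1.496 FPKM, and Oasl1 at 11.9, 1.76 and 14.2 against 1.35, 1.47 and 1.73 FPKM. Oas1a and Ifit3 belong to families of similar copies, so their FPKM may be shared among copies. Cxcl9 and Cxcl10, chemokines that draw T cells, did not pass the filter (at most 0.392 and 2.04 FPKM).

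Leaving out DMSO 2 was the only setting in which limma called more than 1 gene. Without it, 12 genes were lower in C646 tumors and 0 higher at an adjusted p under 0.05, with an adjusted p from 0.0074 to 0.0499. Of these 12, 8 were on the interferon list: Bst2 (log2 fold change -2.87, SE 0.13), Oas1a, Oasl1, Usp18, Isg15, Xaf1, Mx2 and Rsad2. The other 4 were Lgals9, Apol9a, Oas1g and Bhlhe40, named after their values were seen. With DMSO 1 and DMSO 3 left out instead, which was chosen after seeing the data, the median of the program was 0.08, and the program gave no difference in that direction. The calls thus rest on DMSO 1 and DMSO 3 against the C646 tumors, and DMSO 2 did not share them.

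**Figure D2:**
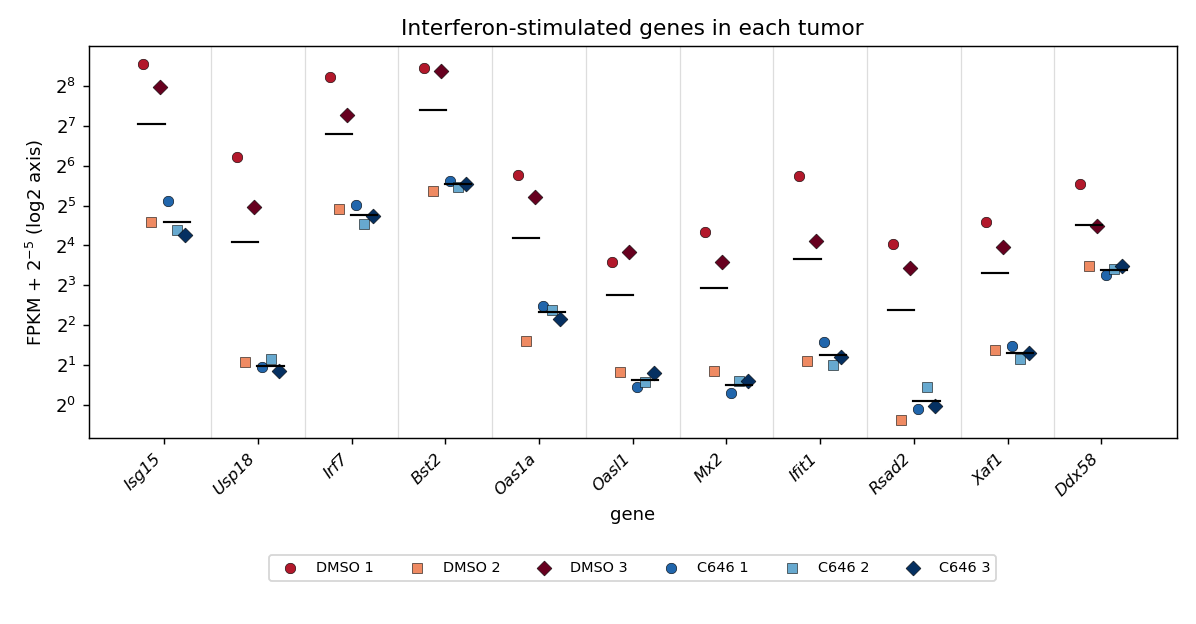
FPKM + 2^-5 of 11 interferon-stimulated genes on a log2 axis, with 1 point per tumor and a line at the mean of the log2 values of each group of 3. DMSO 1 and DMSO 3 lie above the other 4 tumors for all 11 genes, while DMSO 2 lies among or near the C646 tumors.

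Genes of the hypoxia response had the same 2 tumors on top, with a smaller distance. Of 30 genes on the list, 29 were tested, 28 of them with a log2 fold change below 0, and the median was -0.71. At an unadjusted p under 0.05 in limma, 8 were lower and 1 higher, against 1.78% and 1.4% of all genes. Without overlap, 4 were lower (Bnip3l, Ero1l, Bhlhe40 and Mxi1), against 4.52% of all genes. DMSO 1 and DMSO 3 were above the 4 other tumors for 22 of the 29, against 11.5% of all genes tested. The median deviation from the mean of the 6 tumors was 0.95, -0.62 and 0.82 in DMSO 1, 2 and 3 and -0.21, -0.44 and -0.49 in C646 1, 2 and 3, so DMSO 2 had the lowest value of all.

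Vegfa (chr17:46016993-46032369), the main growth factor of blood vessels and a HIF-1 target, was at 183, 19.6 and 104 FPKM in DMSO 1, 2 and 3 and at 43.8, 23.6 and 22.4 FPKM in C646 1, 2 and 3. The mean of the DMSO tumors (102 ± 81.7, SD, n = 3) was 3.41 times that of the C646 tumors (30.0 ± 12.0, SD, n = 3), and yet DMSO 2 had the lowest level of the 6 tumors. The log2 fold change was -1.33 (SE 0.78, limma unadjusted p = 0.13, adjusted p = 0.99, exact permutation p = 0.4), which is within the spread of the DMSO tumors. Without DMSO 1 and DMSO 3 it was 0.54.

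Egln3 (chr12:54178981-54203860), the prolyl hydroxylase PHD3 that marks HIF for decay and is itself a HIF target, was at 320, 48.2 and 150 against 59.4, 56.4 and 29.1 FPKM (log2 fold change -1.52, SE 0.66, unadjusted p = 0.0548 in limma). Ero1l, an oxidase of the endoplasmic reticulum, was at 77.9, 16.99 and 39.5 against 15.6, 16.4 and 12.7 FPKM. Bhlhe40, a repressor induced by hypoxia, was at 88.3, 36.4 and 84.4 against 33.3, 29.6 and 26.7 FPKM. These last 2 genes had DMSO 2 just above the C646 tumors, while Egln3 had it among them.

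Adm, the vessel-dilating peptide adrenomedullin, had the lowest log2 fold change of the list (-2.60), at 46.3, 4.48 and 48.2 FPKM in DMSO tumors and 9.26, 3.28 and 1.45 FPKM in C646 tumors. Car9, which exports acid from hypoxic cells, was at 104, 21.99 and 27.7 against 24.2, 12.9 and 7.47 FPKM, high in DMSO 1 alone. The 1 gene above 0, Angptl4, is induced both by hypoxia and by PPAR factors in fat, and was at 15.7, 8.21 and 8.66 against 13.4, 26.9 and 25.1 FPKM.

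The enzymes of glycolysis are induced by HIF-1 as well, and all 17 tested genes of that list had a log2 fold change below 0, with a median of -0.79. None had an unadjusted p under 0.05 and none had groups without overlap, against 1.78% and 4.52% of all genes. Pgk1, phosphoglycerate kinase, was at 791, 145 and 507 FPKM in DMSO tumors and 231, 172 and 130 FPKM in C646 tumors. Eno1, enolase, was at 1517, 364 and 937 against 406, 449 and 341 FPKM, and Slc2a1, the glucose transporter GLUT1, at 178, 49.2 and 121 against 71.2, 59.2 and 48.4 FPKM. In each of these DMSO 2 was within the C646 range, as it was for 12 of the 17 genes, against 55.8% of all genes tested. Gapdh was listed between 2.11 and 19.9 FPKM, far below its neighbours in the pathway, and it has many near-identical copies in the genome, so its values are uncertain.

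HIF binds a short core, ACGTG or GCGTG, which was searched on both strands of the same promoters. All 24 hypoxia genes with a promoter in the table held it in at least 1 promoter, as did 14 of 17 glycolysis genes (82.4%), against 46.7% of all genes. Counted by promoter, the shares were 88.2% for hypoxia genes and 75% for glycolysis genes, against 43.8% of all promoters. Shown are windows at Egln3 (chr12:54204064-54204124, minus strand), Bnip3 (chr7:138909584-138909658, minus strand) and Pgk1 (chrX:106186915-106186989, plus strand) with the core in capitals, chosen after their values were seen.
Egln3: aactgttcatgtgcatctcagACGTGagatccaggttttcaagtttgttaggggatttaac
Bnip3: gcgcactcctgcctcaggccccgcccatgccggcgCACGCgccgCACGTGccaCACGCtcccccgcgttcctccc
Pgk1: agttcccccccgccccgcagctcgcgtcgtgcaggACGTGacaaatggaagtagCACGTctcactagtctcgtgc

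Bnip3, a mitophagy gene with 5 matches in its promoter, was at 151, 12.8 and 63.7 FPKM in DMSO tumors and 24.6, 12.99 and 14.4 FPKM in C646 tumors. A core this short is common, so its presence alone does not mark a HIF target.

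**Figure D3:**
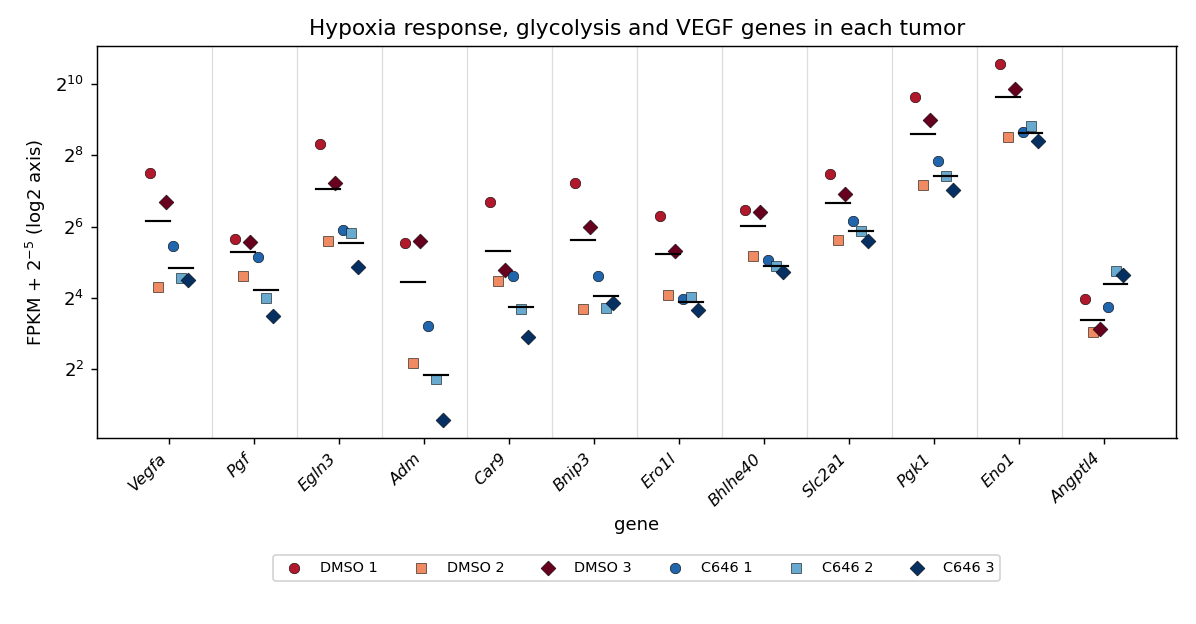
FPKM + 2^-5 of 12 genes of the hypoxia response, glycolysis and VEGF families on a log2 axis, with 1 point per tumor and a line at the mean of the log2 values of each group of 3. DMSO 1 and DMSO 3 lie highest for most genes, DMSO 2 lies at the level of the C646 tumors, and Vegfa of DMSO 2 (19.6 FPKM) is below all C646 tumors.

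Of 8 VEGF ligand and receptor genes tested, Vegfa among them, 7 had a log2 fold change below 0 and the median was -0.49. Pgf, a placental ligand of the receptor FLT1, was at 50.1, 24.6 and 47.5 against 35.3, 15.8 and 11.2 FPKM. Vegfc, the ligand of lymphatic vessels, was lower in all C646 tumors at 1.63, 2.22 and 1.60 against 1.56, 0.893 and 0.938 FPKM. The co-receptor Nrp1 was higher in all of them, at 0.831, 0.668 and 0.892 against 1.17, 1.68 and 3.27 FPKM (limma unadjusted p = 0.0398, adjusted p = 0.99). A second row, which joins Nrp1 with Mir1903, had overlapping groups (2.48, 1.93 and 1.81 against 1.57, 1.68 and 2.44 FPKM), so the reads of the gene are split. The main receptor of VEGF, Kdr, was at 3.24, 1.98 and 2.19 against 2.45, 1.83 and 2.201 FPKM.

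Endothelial marker genes showed no common direction. Of 15 tested, 8 had a log2 fold change above 0 and 7 below, and the median was 0.04. For none did the groups stay apart, against 4.04% higher and 4.52% lower over all genes. Pecam1 was at 12.2, 11.2 and 23.8 FPKM in DMSO tumors and 17.7, 13.95 and 18.8 FPKM in C646 tumors. Cdh5, the cadherin of vessel walls, was at 8.01, 7.45 and 11.4 against 9.24, 6.77 and 7.12 FPKM. Hemoglobin transcripts (the joined row of Hba-a1 and Hba-a2) were at 171, 40.1 and 79.3 against 58.1, 90.7 and 120.1 FPKM, with the groups overlapping.

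White adipocyte genes showed the opposite order, and were the only one of 45 programs whose deviation from the mean kept the 2 groups apart. Groups did not overlap in either direction for 8.56% of all genes tested, so 1 of 45 programs does not exceed that share. All 14 tested genes of 19 on the adipocyte list had a log2 fold change above 0, with a median of 2.58, which was 1.68 with a pseudocount of 1. None passed the adjusted threshold, 11 had an unadjusted p under 0.05 against 1.4% of all genes, and 8 were higher without overlap against 4.04%. Plin1 stayed below 1 FPKM in every DMSO tumor, so it passed the filter on low values through the C646 tumors alone. A member that passes in this way can only come out higher, so these counts are not independent of the filter. The median deviation was -2.67, -0.11 and -0.66 in DMSO 1, 2 and 3 and 0.29, 1.46 and 2.32 in C646 1, 2 and 3, so that DMSO 2 and C646 1 were neighbours. Adipocyte genes are strongly expressed in the fat pad that surrounds mammary tumors, and whether the pieces held different amounts of it was not tested.

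Adipoq (chr16:23146536-23158028), the adipocyte hormone adiponectin, was at 0.186 and 1.57 FPKM in DMSO 1 and 2, was listed at 0 in DMSO 3, and was at 3.57, 10.6 and 22.8 FPKM in C646 1, 2 and 3. Cfd, the secreted protease adipsin, was at 1.54, 27.2 and 3.05 against 33.3, 100.3 and 297 FPKM, and Fabp4, the fatty acid carrier of adipocytes, at 9.76, 36.1 and 45.9 against 48.8, 232 and 234 FPKM. The gaps between the highest DMSO and the lowest C646 tumor were small next to the spread among the C646 tumors. Plin1, the lipid droplet coat, was listed at 0 in DMSO 1, at 0.509 and 0.119 FPKM in DMSO 2 and 3, and at 1.42, 3.94 and 6.71 FPKM in C646 tumors. Pck1, a glyceroneogenic enzyme outside the list, was listed at 0 in DMSO 1 and 3, was at 0.438 FPKM in DMSO 2 and at 1.43, 8.57 and 12.4 FPKM in C646 tumors. Fold changes of such low genes depend on the pseudocount. Cd36, a fatty acid transporter, was at 2.76, 1.92 and 1.00 against 2.95, 6.07 and 8.08 FPKM. The genes of fatty acid synthesis, which mammary epithelium shares with fat, had a median of 0.26 over 16 genes, with Fasn at 41.1, 48.8 and 58.4 against 47.9, 83.0 and 87.6 FPKM.

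Milk protein genes, made by differentiated luminal cells, had a median deviation of -1.47, -0.19 and 0.38 in DMSO 1, 2 and 3 and of -0.05, 1.31 and 0.27 in C646 1, 2 and 3, so that DMSO 1 was lowest and C646 2 highest. All 13 tested had a log2 fold change above 0 with a median of 0.98. For none were the groups apart, against 4.04% higher and 4.52% lower over all genes. Of the 13, 1 was higher at an unadjusted p under 0.05 in limma, against 1.4% of all genes. The median was 0.35 without C646 2, 0.52 without DMSO 1 and 1.41 without DMSO 2. Csn2, β-casein, was at 16.4, 250.2 and 394.5 FPKM in DMSO tumors and 109, 2372 and 1818 FPKM in C646 tumors. Lalba, which helps to make lactose, was at 437, 1572 and 906 against 1357, 1837 and 2014 FPKM. C646 1 was thus within the DMSO range for both genes. Among luminal regulators, Stat5b, a mediator of prolactin, was higher in all C646 tumors (19.5, 25.7 and 19.8 against 34.99, 28.1 and 32.4 FPKM, limma unadjusted p = 0.00974, adjusted p = 0.99), and Stat5a likewise (19.2, 27.7 and 28.2 against 30.6, 31.9 and 39.0 FPKM). Of the 19 luminal genes tested, 12 were above 0 and 7 below with a median of 0.08, and besides these Esr1, the estrogen receptor, was higher and Krt8 lower without overlap, against 4.04% and 4.52% of all genes.

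**Figure D4:**
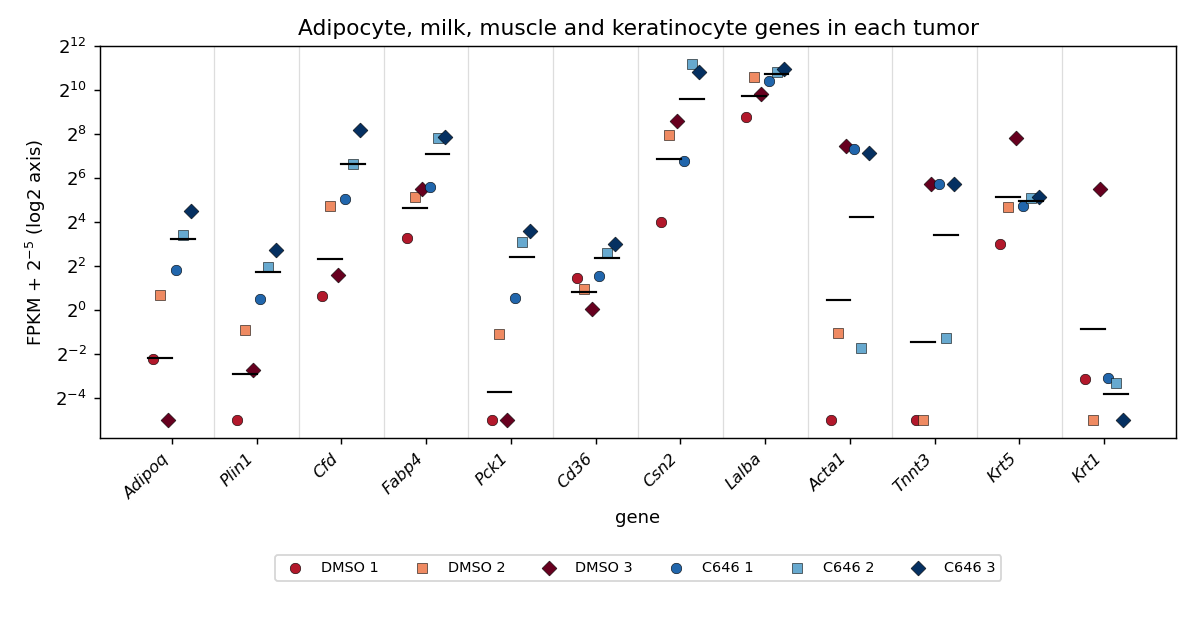
FPKM + 2^-5 of adipocyte, milk, muscle and keratinocyte genes on a log2 axis, with 1 point per tumor and a line at the mean of the log2 values of each group of 3, and points at the lowest level listed at 0. Adipocyte genes lie highest in C646 2 and C646 3, muscle genes are high in DMSO 3, C646 1 and C646 3, and Krt1 is high in DMSO 3 alone.

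In the skeletal muscle list no gene had groups that stayed apart, against 4.04% higher and 4.52% lower over all genes. Its median log2 fold change was 2.53. That median was 0.11 without C646 1, 0.19 without C646 3, 1.03 without DMSO 1 and 4.76 without C646 2. Its summed level was 36.7, 33.8 and 663 FPKM in DMSO 1, 2 and 3 and 629, 22.98 and 557 FPKM in C646 1, 2 and 3. Tnnt3, a troponin of fast fibers, was listed at 0 in DMSO 1 and DMSO 2, at 0.386 FPKM in C646 2, and at 53.7, 54.0 and 52.8 FPKM in DMSO 3, C646 1 and C646 3. High muscle genes were thus found in 1 DMSO and 2 C646 tumors. Basal epithelial genes were high in DMSO 3 only, with Krt5 at 8.01, 25.6 and 229 FPKM in DMSO tumors and 26.4, 34.2 and 35.2 FPKM in C646 tumors. S100a8, a neutrophil and keratinocyte gene, was at 654 FPKM in DMSO 3 and at most 92.1 FPKM in the others. DMSO 1 and DMSO 3 had the highest median deviations of the interferon and hypoxia genes. Of these tumors, DMSO 1 had little of the muscle and keratinized genes and DMSO 3 had both. Whether these levels are related was not tested.

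Of the 18 p53 target genes on the list, 16 were tested, 12 with a log2 fold change below 0, and the median was -0.12. At an unadjusted p under 0.05, 5 were lower (Phlda3, Cdkn1a, Bax, Plk2 and Perp), and for Phlda3, Cdkn1a and Bax the groups did not overlap, against 1.78% and 4.52% of all genes. The median was between -0.28 and -0.05 with 1 tumor left out. Cdkn1a, the cell cycle inhibitor p21, was at 114, 35.9 and 41.3 FPKM in DMSO tumors and 23.8, 16.02 and 30.5 FPKM in C646 tumors. Bax, which opens mitochondria in apoptosis, had a mean in DMSO tumors 1.29 times that in C646 tumors. Mdm2 and Ccng1, standard targets of p53 named after their values were seen, had log2 fold changes of -0.07 and -0.03. Of 24 immediate-early genes, 10 were above 0 and 14 below with a median of -0.09, and Atf3 and Fos were lower without overlap, against 4.52% of all genes. Fos, a subunit of AP-1, was at 39.7, 44.9 and 67.5 against 33.1, 30.7 and 25.0 FPKM (unadjusted p = 0.012 in limma).

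Proliferation genes had a median of 0.12 over 36 genes, none with groups apart, against 4.04% higher and 4.52% lower over all genes. Mki67 was at 22.9, 40.2 and 43.3 FPKM in DMSO tumors and 52.3, 43.7 and 35.4 FPKM in C646 tumors. Cholesterol synthesis genes had 21 of 23 values below 0 and a median of -0.31, with no groups apart, against the same shares. Of the 23, 12 were higher in DMSO 1 and DMSO 3 than in every other tumor, against 11.5% of all genes tested. Oxidative phosphorylation subunits had 71 of 75 below 0 with a median of -0.15, and mitochondrial ribosomal proteins 63 of 77 with a median of -0.10, 4 and 6 of them lower without overlap, against 4.52% of all genes. Without DMSO 3 the mitochondrial ribosomal median was 0.05. These shifts were small, and quantile normalization moved the median of oxidative phosphorylation to 0.02. Mrps7, of the mitochondrial ribosome, was at 342, 50.9 and 68.9 FPKM in DMSO tumors and 62.0, 53.4 and 49.6 FPKM in C646 tumors, high in DMSO 1 alone.

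Among stromal and immune genes, the fibroblast and matrix list had a median of 0.31 over 22 genes, with C646 3 highest. Col1a1 was at 85.9, 104 and 157 FPKM in DMSO tumors and 111, 118 and 214 FPKM in C646 tumors. Lox and Loxl1, which crosslink collagen, were higher in all C646 tumors, Loxl1 at 5.03, 7.86 and 7.66 against 8.65, 10.6 and 17.03 FPKM. Of the 22 genes, 2 were higher without overlap, against 4.04% of all genes. Macrophage genes had a median of 0.12 over 17 genes. MHC class II genes, among them Cd74 in a joined row (85.7, 331 and 167 against 253, 219 and 413 FPKM), had a median of 0.47 over 6 genes, and DMSO 1 was lowest. The 18 other programs with at least 5 tested genes had medians between -0.47 (neutrophil and inflammatory chemokine genes) and 0.26 (fatty acid synthesis).

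Since p300 acts on enhancers, the genes that the study places next to tumor super-enhancers were read as well, taken from its own lists. Super-enhancers are long clusters of strongly acetylated enhancers near genes of cell identity. Of 592 names, 574 had a row and 483 were tested, with a median log2 fold change of 0.01, 245 above 0 and 238 below. For 21 the C646 tumors were all higher and for 13 all lower, against 4.04% and 4.52% of all genes. At an unadjusted p under 0.05, 7 were higher and 5 lower, against 1.4% and 1.78%, and none passed the adjusted threshold. These counts were near or below the shares over all genes. The subset next to super-enhancers that carry H3K4me3 had a median of 0.00 over 188 genes, with 9 higher and 5 lower without overlap, against the same 4.04% and 4.52%. The most abundant of these genes, Fth1, Spp1 and Igfbp5, had overlapping groups, Spp1 (osteopontin) at 2192, 3204 and 2956 FPKM in DMSO tumors and 3515, 2272 and 4378 FPKM in C646 tumors. Pinc, a noncoding RNA of the mammary gland, was at 13.9, 24.1 and 7.07 against 31.5, 32.0 and 75.9 FPKM, and Bahcc1 at 1.51, 3.51 and 1.98 against 5.03, 3.97 and 4.803 FPKM. Fos is on the list too.

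**Figure D5:**
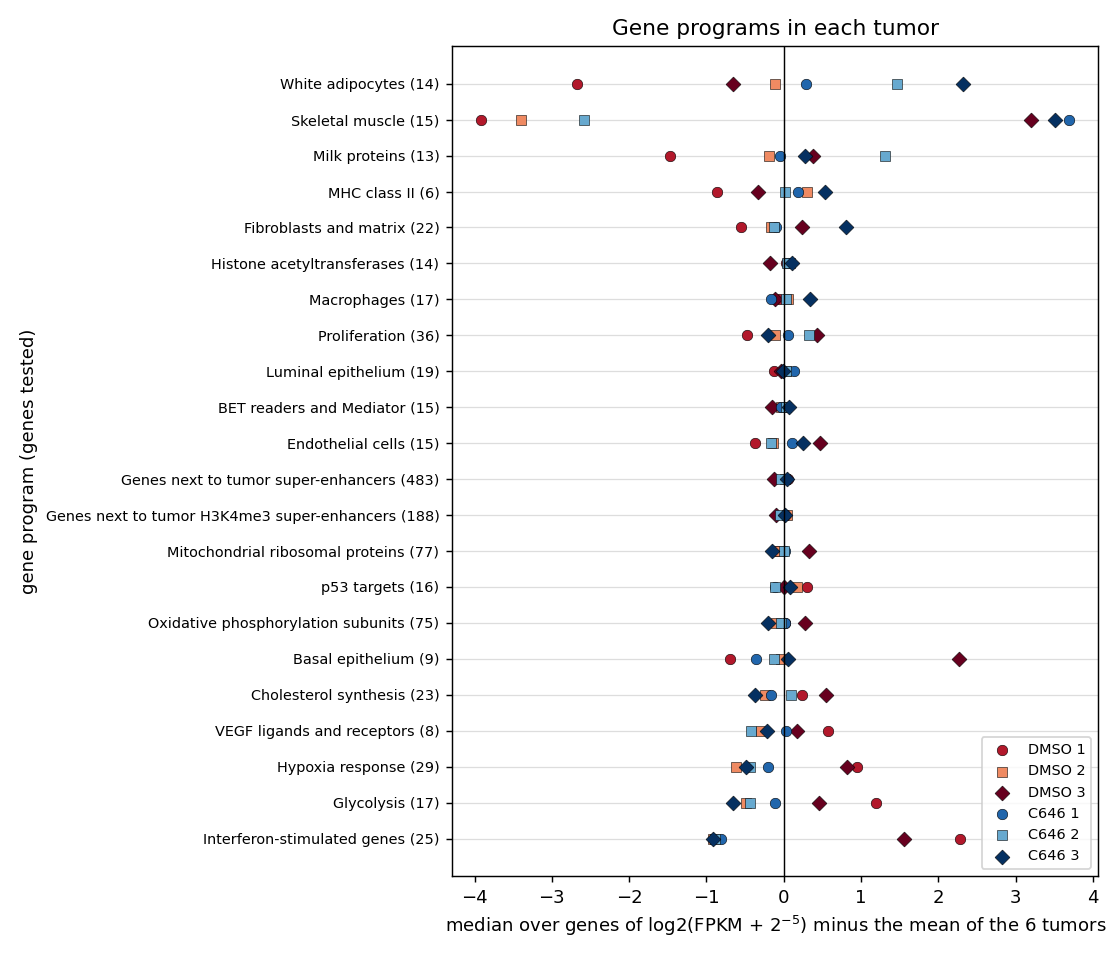
Deviation of each tumor in 22 gene programs, as the median over the tested genes of log2(FPKM + 2^-5) minus the mean of the 6 tumors, with the number of genes in brackets. DMSO 1 and DMSO 3 stand out in the interferon, hypoxia and glycolysis programs, and only the adipocyte program has all C646 tumors above all DMSO tumors.

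The untreated tumors of the series were normalized in separate files, so only their ranges are set beside these values. Isg15 was between 24.4 and 100.1 FPKM in the 3 untreated tumors, Usp18 between 1.67 and 22.2, Vegfa between 12.4 and 34.5 and Egln3 between 35.8 and 95.9. Adipoq was between 1.57 and 58.2 FPKM. For Vegfa, DMSO 2, C646 2 and C646 3 lay within that range and DMSO 1, DMSO 3 and C646 1 above it.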

How the data were processed

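RNA of 20 mg tissue was made into poly-A libraries with a kit that does not mark strand, so overlapping genes on opposite strands cannot be told apart. The authors trimmed adaptors, mapped reads to mm10 with TopHat2 2.1.1, computed FPKM with Cufflinks 2.2.1 and deposited 1 FPKM table per sample. Read counts were not used here, so the depth is unknown, though the ratios of FPKM under 0.1 put it at 0.924 to 1.29 times that of DMSO 1. The share of ratios at the peak that was read was 0.273 for DMSO 3, the tumor at 1.29, and 0.27 for C646 1. It was 0.488 to 0.606 for DMSO 2, C646 2 and C646 3, so the depth stays uncertain. Precision is therefore given by the spread of 3 tumors a group. Summed FPKM was 526854.9 to 638605.6.

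FPKM was summed over rows sharing a name (23691 names, of which 509 join several genes). Groups came from sample titles. A gene had to reach 1 FPKM in 3 or more tumors. The test was limma 3.58.1 (R 4.3.3, trend in the variance, two-sided, Benjamini-Hochberg, 0.05) on log2(FPKM + 2^-5), which understates changes of low genes. Lists were described by counts and medians, without set tests. The members and lists were chosen with earlier results of these data known. Named were genes of the study's interest, 10 per direction by lowest p among genes without overlap, and per list up to 5 by p and 3 by level, with cell type markers; further list members were named after their values were seen. Alternatives were 2 pseudocounts, no filter, median-ratio and quantile scaling, no trend, a replicate block and leaving out each tumor; leaving out DMSO 1 and DMSO 3 together was added after seeing the data. limma was tested on simulated data. Promoters came from RefSeq (GRCm38.p6) and positions from GENCODE vM21 (GRCm38, the build of mm10). Python 3.11.15 with matplotlib 3.10.9 was used.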

Additional observations from a re-analysis of the deposited data

How the results depend on the processing

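With 3 tumors a group and DMSO tumors that differ among themselves, no single gene reached the threshold under any planned setting with all 6 tumors. Pseudocounts of 1 and 0.25, no filter, both scalings, no variance trend and the blocked fit kept 55 of 56 counts over all genes within 1.5 times. The exception was 345 lower genes at an unadjusted p without the filter. Many of the 56 could not move, so the 55 overstates what was tried. The 2-fold rule does not use the pseudocount, filter, trend or block. Overlap does not use the pseudocount, trend or block. The counts past the threshold held no gene in any of these settings. Quantile normalization moved the medians of luminal genes to 0.23, of genes next to H3K4me3 super-enhancers to 0.08 and of oxidative phosphorylation subunits to 0.02. The cause was not tested.

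With the replicate number as a block, limma called 0 genes higher and 0 lower, with 169 and 261 at an unadjusted p under 0.05 and a lowest adjusted p of 0.0597 (Fabp4). Deviations from the group means correlated at 0.175, 0.0699 and 0.109 for tumors of the same number. For tumors of different numbers the correlation was between -0.234 and 0.141, the highest for DMSO 2 with C646 3. Whether the numbers pair the tumors was not tested.

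Leaving out 1 tumor at a time gave 0 to 12 lower genes past the threshold, the 12 without DMSO 2. It gave 49 to 425 higher and 106 to 571 lower genes at an unadjusted p, 148 to 304 past the 2-fold rule higher, and 748 to 1509 higher and 891 to 1630 lower genes without overlap, where fewer tumors make overlap rarer. The lowest counts at an unadjusted p came without C646 3 and the highest without DMSO 2. Medians ranged from -0.86 to -0.33 for VEGF genes, from -0.14 to 0.24 for luminal genes and from -0.28 to -0.05 for p53 targets. The interferon median was -2.88 without DMSO 2 and -1.10 without DMSO 1, hypoxia was -1.27 without DMSO 2 and -0.58 without DMSO 3, and glycolysis was -1.22 without DMSO 2 and -0.37 without DMSO 1. White adipocytes ranged from 1.86 to 3.20, milk proteins from 0.35 to 1.41, skeletal muscle from 0.11 to 4.76 and mitochondrial ribosomal proteins from -0.18 to 0.05.

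Without DMSO 1 and DMSO 3 together, chosen after seeing the data, the lone DMSO 2 is assumed to vary like the C646 tumors. Then 1 gene was higher past the threshold (Slc22a27, listed at 0 in DMSO 2), 269 genes were past the 2-fold rule higher and 155 lower, and 2397 and 2821 did not overlap. Medians were 0.20 for VEGF, 0.11 for hypoxia and also 0.11 for glycolysis, 0.10 for cholesterol synthesis, -0.06 for luminal, -0.14 for MHC class II, 0.08 for interferon and 0.00 for acetyltransferase genes. Vegfa turned to 0.54 and Mrps7 to 0.11. The white adipocyte median was 1.49, and 1.68 with a pseudocount of 1 and all tumors, against 2.58.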
